A study of Mus musculus with 10 samples.

Results

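The genes described here are 9 regulators of the passage from spermatogonial divisions into meiosis in the mouse testis: Stra8, Gm4969 (the symbol the matrices use for Meiosin), Meioc, Ythdc2, Dmrt1, Dmrtb1, Sohlh1, Sohlh2 and Kit. They were chosen by name, as the genes around Stra8 and Meiosin, and all 9 were found among the 28125 genes of the scRNA-seq matrix and among the 30670 genes of the scATAC-seq matrix. Both matrices give 1 pooled value per gene for each of 13 cell populations.

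The study asked what the transcription factor NFYA does at the start of meiosis. RNA and accessible chromatin were profiled in single cells from WT testes at 11, 17 and 25 days postpartum (dpp), from testes with Stra8-Cre alone (Cre/+) and from testes of Nfya fl/fl; Stra8-Cre mice (Nfya-CKO), with 1 library per condition and assay. The names of the deposited cells give 8 weeks as the age of the Cre/+ and Nfya-CKO testes. The mice were C57BL/6J. In Nfya-CKO a pair of Nfya exons is deleted in germ cells that make Cre. The Cre is part of a ZsGreen1 and Cre cassette that sits in Stra8 itself, ahead of the stop codon, so a modified allele of 1 of the 9 genes was present in Cre/+ and in Nfya-CKO testes and absent from the WT testes.

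Germ cells at the retinoic acid pulse either keep dividing as spermatogonia or enter meiotic prophase. STRA8 is induced by retinoic acid and works with MEIOSIN to switch on meiotic genes. MEIOC and the RNA helicase YTHDC2 act later on the transcriptome, and clear mitotic transcripts so that prophase can go on. DMRT1 holds spermatogonia back from meiosis, DMRTB1 (DMRT6) acts in late spermatogonia, SOHLH1 and SOHLH2 drive spermatogonial differentiation, and the receptor tyrosine kinase KIT carries the signal of its ligand on differentiating spermatogonia.

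There were 9 control germ cell populations. Before meiosis stood the undifferentiated (undiff. SpG) and the differentiating (diff. SpG) spermatogonia. The spermatocytes were split into preleptotene (pL), 2 leptotene to early pachytene groups (eL/L/Z, then L/Z/eP), later pachytene (mP/lP) and diplotene (D), and the spermatids into round (RS) and elongating (ES). The other populations were the spermatogonia of the Nfya-CKO library, Sertoli cells, other somatic cells and cells of unknown type. All 491 cells of the Nfya-CKO spermatogonia came from the Nfya-CKO library. Their summed level of 7 undifferentiated spermatogonia markers was 19.2 UMIs (unique molecular identifiers) per 10000, beside 19.5 in undiff. SpG and 6.82 in diff. SpG. Uchl1 made up most of the former, at 11.0 and 5.88 in Nfya-CKO spermatogonia and undiff. SpG, while Zbtb16 (4.15 and 8.74) and Id4 (0.290 and 0.682) were lower. Ret (1.36 and 2.30) and Nanos2 (0.0218 and 0.0986) were lower too, whereas Etv5 (1.11 and 0.760) and Gfra1 (1.20 and 1.08) were higher. Without Uchl1 the other 6 summed to 8.13, 13.7 and 2.03 in Nfya-CKO spermatogonia, undiff. SpG and diff. SpG. Of the list, 6 markers passed the minimum mean used below. Zbtb16 and Id4, 2 of these, were at least 2-fold lower than in undiff. SpG, beside 3.08% of all genes. Id4 was only just past this limit. The like sum of the 7 thus rested on Uchl1. The controls differed in origin, because 1188 of the 1292 undiff. SpG came from WT juveniles, 783 of the 927 diff. SpG came from Cre/+ testes and 1755 of the 1761 pL cells came from WT juveniles.

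Some libraries shared cell barcodes. The Cre/+ and Nfya-CKO RNA libraries had 3820 barcodes in common, and the 3 WT libraries shared 621 to 853 per pair, whereas a WT library shared 0 to 19 with Cre/+ or Nfya-CKO. Among Nfya-CKO spermatogonia, 176 of 491 barcodes also occurred in Cre/+, and all 176 held more UMIs in Nfya-CKO, with a median of 21379 beside 2273. Of these, 144 were named diff. SpG in the Cre/+ library. A barcode shared with another library was carried by 455 of 927 diff. SpG, by 420 of 1292 undiff. SpG, by 335 of 1761 pL cells, by 714 of 1195 ES cells and by 4126 of 5883 other somatic cells. The matrices are pooled, so no value could be computed without these cells, and their part in the results was not tested. The value of Nfya itself was 1.11 UMIs per 10000 in Nfya-CKO spermatogonia, 0.456 in undiff. SpG and 0.667 in diff. SpG. Counting over the gene can include transcripts without the deleted exons, so this level does not check the genotype, and the population is named for its label. RNA of other cells was also present. In Nfya-CKO spermatogonia and undiff. SpG, 6 Leydig markers summed to 49.3 and 0.211 UMIs per 10000, and 7 Sertoli markers to 27.3 and 4.33. Of these, 5 and 3 were at least 2-fold higher in Nfya-CKO spermatogonia, beside 4.09% of all genes. The higher Sertoli sum rested on Clu, at 22.8 in Nfya-CKO spermatogonia and 2.498 in undiff. SpG. The 3 higher Sertoli markers were Clu, Amhr2 and Gata4. Clu and Amhr2 were higher in other somatic cells (91.5 and 10.1) than in Sertoli cells (34.1 and 5.03), whereas Gata4 was highest in Sertoli cells. Sox9, Wt1, Amh and Rhox5 were within 2-fold of undiff. SpG. The 5 spermatid markers summed to 11.1 in diff. SpG and 0.0236 in pL. The part of this RNA in the differences below was not tested.

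Sequence before a start site of 4 of the genes is shown first, because CCAAT is the pentamer that NF-Y, the complex of NFYA, binds. RefSeq promoter windows on GRCm38.p6, running from 250 bases before to 50 bases after a start site, were matched for 7 of the 9 genes, with no entry for Ythdc2 and Dmrt1. RefSeq lists Gm4969 as Bhmg1. The 250 bases before the start site of the window are printed 5′ to 3′ on the strand of the gene. In the first 3, capitals mark CCAAT or its reverse complement ATTGG. These 3 stretches lie wholly (Stra8) or in large part (Meiosin, Meioc) inside the outer bounds that RefSeq gives the gene, which reach further upstream than the start site used, and only that of Sohlh1 lies outside its gene.
Stra8, chr6:34920698-34920947, plus strand: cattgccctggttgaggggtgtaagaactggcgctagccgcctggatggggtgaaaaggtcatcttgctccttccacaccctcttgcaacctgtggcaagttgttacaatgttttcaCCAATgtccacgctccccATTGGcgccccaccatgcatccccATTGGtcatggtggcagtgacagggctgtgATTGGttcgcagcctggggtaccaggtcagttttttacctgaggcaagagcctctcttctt
Gm4969 (Meiosin), chr7:19118345-19118594, minus strand: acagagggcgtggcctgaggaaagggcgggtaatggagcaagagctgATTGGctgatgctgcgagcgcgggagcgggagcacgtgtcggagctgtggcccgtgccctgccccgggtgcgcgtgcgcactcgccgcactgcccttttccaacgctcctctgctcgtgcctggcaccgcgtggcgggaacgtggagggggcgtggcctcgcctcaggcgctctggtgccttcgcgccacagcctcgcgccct
Meioc, chr11:102665335-102665584, plus strand: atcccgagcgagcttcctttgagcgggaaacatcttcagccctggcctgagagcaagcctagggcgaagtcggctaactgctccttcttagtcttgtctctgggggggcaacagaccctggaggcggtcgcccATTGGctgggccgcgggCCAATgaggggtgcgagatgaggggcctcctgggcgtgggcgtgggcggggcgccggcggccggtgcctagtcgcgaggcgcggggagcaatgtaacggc
The Stra8 window held 4 matches, which began 133, 115, 91 and 61 bases before the start, the first as CCAAT and the other 3 as ATTGG. Of the 32851 windows of the same length, 1.06% held at least 4. Meioc held 2 matches, 117 and 100 bases upstream, on opposite strands, and 11.7% of windows held at least 2. The Meiosin window held 1, 203 bases upstream, as did 37.4% of windows at least once. The second of 2 Dmrtb1 windows held 1 match, and the windows of Sohlh1, Sohlh2 and Kit held none. Stra8 further carried 2 AGGTCA half-sites (either strand), the letters read by retinoic acid receptors, 194 and 38 bases upstream, which 1.81% of windows matched at least 2 times. It also had 1 ACATTGT, the core read by DMRT proteins, 145 bases upstream, found in 2.96% of windows. These are matches of letters and no evidence of binding.

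The fourth window belongs to Sohlh1, a basic helix-loop-helix gene. Capitals here mark CACGTG, a form of the E-box CANNTG that reads the same on both strands.
Sohlh1, chr2:25847249-25847498, minus strand: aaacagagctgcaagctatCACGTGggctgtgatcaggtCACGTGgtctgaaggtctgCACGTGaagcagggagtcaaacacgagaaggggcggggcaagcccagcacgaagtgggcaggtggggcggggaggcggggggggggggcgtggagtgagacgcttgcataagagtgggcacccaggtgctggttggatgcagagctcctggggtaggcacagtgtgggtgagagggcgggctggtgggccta
It held 3 copies, beginning 231, 211 and 192 bases upstream, and 0.0883% of all windows held at least 3. Meiosin held 1 copy, 171 bases upstream, as 7.15% of windows did at least once. Both genes encode basic helix-loop-helix proteins, the class that binds E-boxes.

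On the same build the genes lie at chr6:34920163-34939344 (Stra8), chr7:19098271-19118531 (Meiosin), chr11:102665351-102682240 (Meioc), chr19:25505618-25604328 (Dmrt1), chr4:107676288-107704011 (Dmrtb1), chr2:25842995-25847248 (Sohlh1), chr3:55182044-55209957 (Sohlh2) and chr5:75574987-75656722 (Kit), with Ythdc2 on chromosome 18. All 9 are annotated as protein coding. Meiosin overlaps Six5, and Dmrtb1 overlaps Gm12899 and 1700047F07Rik, so counts there may be split between genes. The deposited values carry no replicate, so every difference in the text is a size without a test, and neighbours in an order of levels could not be separated by any spread. As a guide to precision, the approximate number of UMIs behind a value was computed from the cells and their median depth.

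Stra8 transcripts were highest in pL, at 4.86 UMIs per 10000, resting on about 6983 UMIs. Levels were 2.05 in undiff. SpG, 2.59 in diff. SpG and 2.67 in eL/L/Z. They were 0.964 in L/Z/eP, and stayed between 0.230 and 0.575 from mP/lP to ES. The somatic populations lay between 0.0595 in unknown cells and 0.810 in Sertoli cells. The gene was thus already present in undifferentiated spermatogonia, was highest at preleptotene and was low from mP/lP on. Its value in D was 0.575, beside 0.272 in mP/lP and 0.240 in RS. Meiosin, Kit, Dmrt1, Dmrtb1 and Sohlh1 were also higher in D than in mP/lP, while Meioc, Ythdc2 and Sohlh2 were lower. D held 51 cells of WT 11 dpp and 98 of WT 17 dpp. The paper gives eL/L/Z and L/Z/eP as the latest germ cells at these ages. The part of earlier cells in the D values was not tested. The likest patterns over the 13 populations, among 13 points that share libraries and depth, were those of Setdb2 (r = 0.98), Plag1 (r = 0.98) and Gm15262 (r = 0.98), and all 3 were also highest in pL. Likeness depends on the measure: of the 27 likest genes named for the members, 7 were kept with Spearman's rho. Over the 9 control germ cell populations alone, 3 were kept.

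Meiosin was thinly covered, with about 389 UMIs behind its highest value. That value was 0.294 UMIs per 10000 in L/Z/eP. It was 0.285 in eL/L/Z, 0.235 in diff. SpG and 0.216 in pL. Undiff. SpG had 0.0710 and mP/lP had 0.0462. Its levels thus formed a plateau from diff. SpG to L/Z/eP and did not share the sharp maximum of Stra8 at preleptotene. The correlation between both genes over the 13 populations was 0.71. Mki67 (r = 0.94), a marker of dividing cells, Pclo (r = 0.94) and Pbx3 (r = 0.93) had the patterns closest to that of Meiosin.

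**Figure D1:**
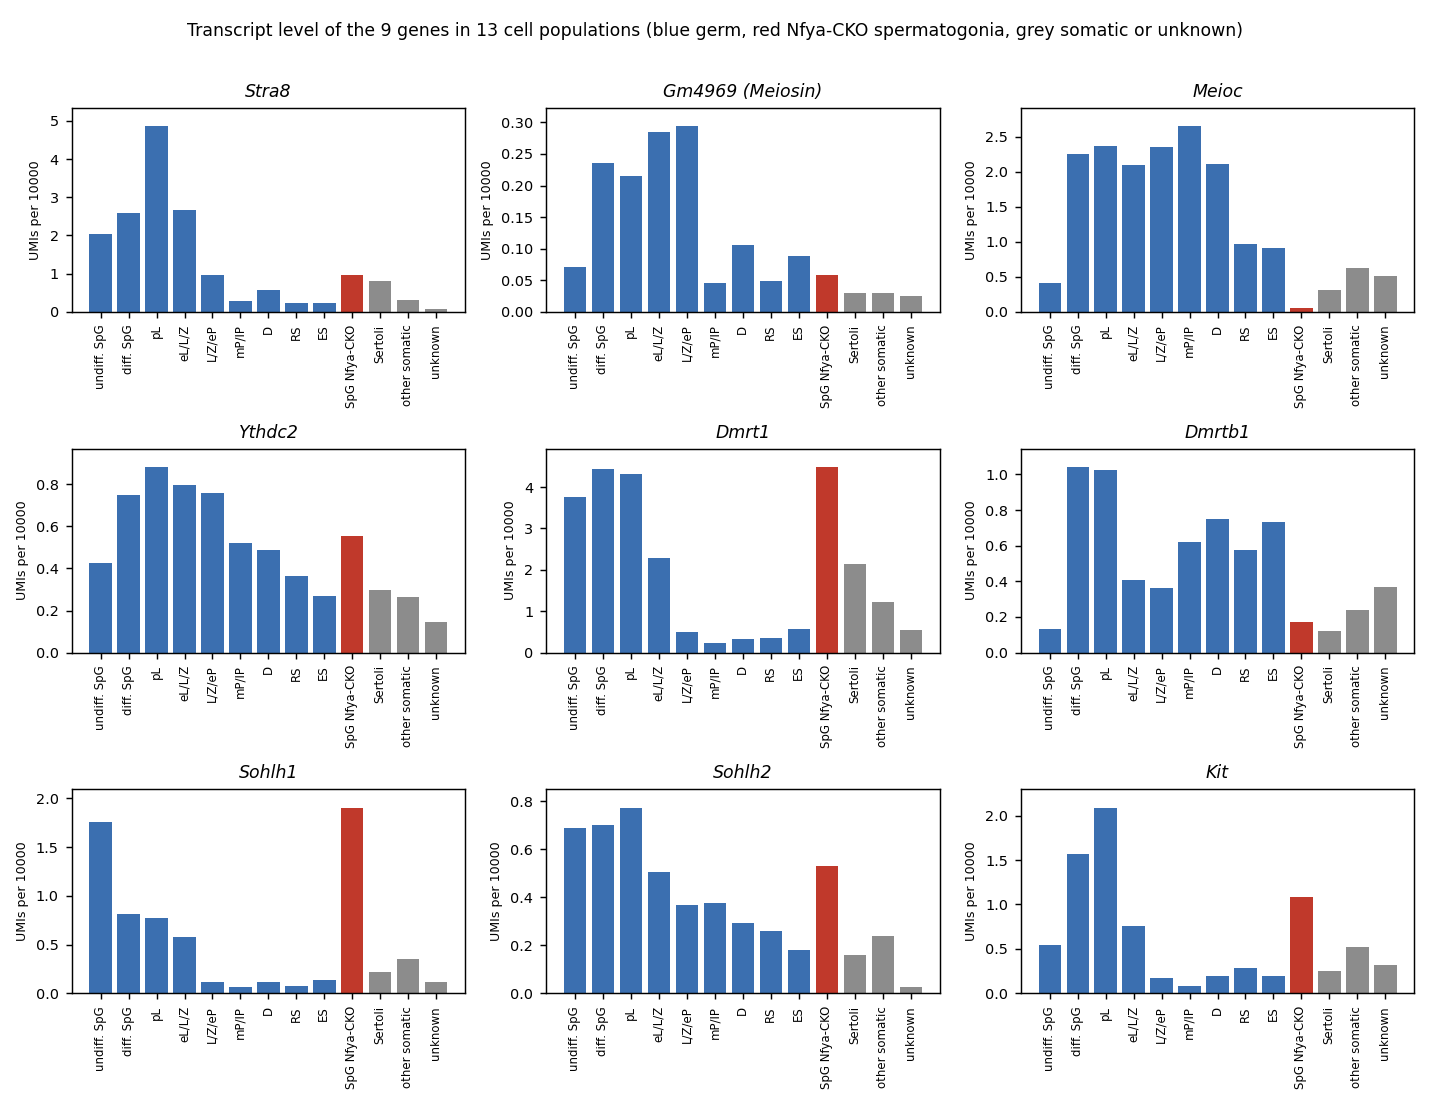
Transcript level of each of the 9 genes (UMIs per 10000, 1 pooled value per bar, separate y axes from 0) in 9 control germ cell populations (blue), Nfya-CKO spermatogonia (red) and somatic or unknown cells (grey). Stra8 is highest in pL at 4.86, Meioc is lowest of all 13 populations in Nfya-CKO spermatogonia at 0.0513, and Sohlh1 and Dmrt1 are highest there at 1.90 and 4.48.

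Meioc was low in undiff. SpG and higher from diff. SpG to D. It stood at 0.409 UMIs per 10000 in undiff. SpG and at 2.24 in diff. SpG. From there to D it stayed between 2.09 and 2.65, the latter in mP/lP. RS had 0.973 and ES had 0.916. Markers of pachytene cells also differed at the first step, as 5 of them summed to 4.005 UMIs per 10000 in undiff. SpG, 14.8 in diff. SpG and 3.09 in pL, and their part was not tested. In pL, where this sum was below that of undiff. SpG, Meioc was 2.37. The gene was thus low before differentiation, level over the whole of meiotic prophase and lower in spermatids. Pde6d (r = 0.96), Sdf2l1 (r = 0.95) and Prss50 (r = 0.94) had the likest patterns.

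Ythdc2, the helicase partner of MEIOC, had a flatter course. It was 0.425 in undiff. SpG, 0.750 in diff. SpG and 0.882 in pL. It then declined step by step to 0.268 in ES, a 3.29-fold span over the 9 germ cell populations, beside a 6.46-fold span for Meioc. Ddx43 (r = 0.97), a helicase gene, C2cd5 (r = 0.96) and Taf3 (r = 0.96) were the likest genes. The pattern of Ythdc2 was closer to that of Sohlh2 (r = 0.87) than to that of its partner Meioc (r = 0.52).

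Dmrt1 was high in spermatogonia and pL, at 3.76 in undiff. SpG, 4.43 in diff. SpG and 4.31 in pL. It was 2.27 in eL/L/Z and 0.488 in L/Z/eP. Sertoli cells, which are known to use this gene, had 2.13. The transcript was therefore still at its spermatogonial level in preleptotene cells, where Stra8 peaked. E2f3 (r = 0.99), Gsr (r = 0.98) and Ppat (r = 0.98) had the likest patterns.

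Dmrtb1 differed from its relative. It was 0.133 in undiff. SpG, 1.04 in diff. SpG and 1.03 in pL. It was 0.409 in eL/L/Z and 0.363 in L/Z/eP, and lay between 0.574 and 0.752 from mP/lP to ES. The gene thus had a first maximum in diff. SpG and pL and a second, lower one in late prophase and spermatids. Over the 13 populations its correlation with Dmrt1 was -0.24 and that with Meioc 0.77. Dll3 (r = 0.91), Pdcd5 (r = 0.88) and Cdca3 (r = 0.88) were the likest genes.

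Sohlh1 had its highest control value in undiff. SpG, at 1.75 UMIs per 10000. It was 0.818 in diff. SpG, 0.770 in pL and 0.576 in eL/L/Z. From L/Z/eP on it stayed between 0.0698 and 0.133. The partner Sohlh2 was 0.688, 0.703 and 0.773 in undiff. SpG, diff. SpG and pL, and declined to 0.181 in ES. The pair thus differed at differentiation, where Sohlh1 was lower and Sohlh2 was level. The likest genes were Arrb2 (r = 0.99), Raver2 (r = 0.99) and the replication licensing gene Cdt1 (r = 0.99) for Sohlh1, and Nup133 (r = 0.98), Gpatch11 (r = 0.96) and Zfp866 (r = 0.96) for Sohlh2.

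Kit was 0.548 in undiff. SpG, 1.56 in diff. SpG and 2.09 in pL. It was 0.756 in eL/L/Z and 0.178 in L/Z/eP, and its lowest value was 0.0818 in mP/lP. Edem1 (r = 0.94), Met (r = 0.94), which is another receptor tyrosine kinase gene, and Arnt (r = 0.93) were likest. Kitl, the ligand of KIT, was highest in Sertoli cells at 7.11 UMIs per 10000 and lay between 0.170 and 1.23 in the control germ cells.

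Steps between neighbouring germ cell populations were read as log2 ratios of UMIs per 10000 with 0.1 added, over the 15250 genes with a mean of at least 0.05. All 9 members passed this minimum, and one counted when it was at least 2-fold apart. From undiff. SpG to diff. SpG, Meioc (4.60-fold), Dmrtb1 (4.90-fold) and Kit (2.57-fold) were higher, beside 9.57% of all genes, and Sohlh1 (2.02-fold) was lower, beside 6.28%. Meiosin just missed the limit at 1.96-fold higher. Between diff. SpG and pL no member differed 2-fold in either direction, beside 1.27% of genes higher and 10.9% lower. Stra8, at 1.85-fold higher, was the most different member at that step.

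Between pL and eL/L/Z, Dmrtb1 (2.21-fold) and Kit (2.55-fold) were lower, beside 0.59% of all genes. In L/Z/eP, set against eL/L/Z, Stra8 (2.60-fold), Dmrt1 (4.04-fold), Sohlh1 (3.06-fold) and Kit (3.08-fold) were lower, beside 3.97%. Stra8 (2.86-fold) and Meiosin (2.69-fold) were lower in mP/lP than in L/Z/eP, beside 3.54%. Meioc was 2.06-fold lower in RS than in D, beside 3.34%. From mP/lP to D and from RS to ES no member was 2-fold lower, beside 0.184% and 10% of genes. With 0.1 added, no member was 2-fold higher at any step after diff. SpG, while 4.41% of genes were in eL/L/Z, 5.45% in L/Z/eP, 1.38% in mP/lP, 4.92% in D, 10.6% in RS and 10.1% in ES. Over the 8 steps, 10 member steps were lower and 3 were higher, and the 3 higher ones all fell between undiff. SpG and diff. SpG. With 1 in place of 0.1 added, these counts were 1 lower and 1 higher, and with 0.01 added 7 were higher. The plain ratios of D to mP/lP were 2.12 for Stra8, 2.30 for Meiosin and 2.33 for Kit, so at these low levels the count depends on the pseudocount.

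Nfya-CKO spermatogonia were compared with undiff. SpG, the control population nearest in its sum of the 7 undifferentiated markers, a likeness that rests on Uchl1. The median depth was 18361 UMIs per cell in Nfya-CKO spermatogonia and 9290 in undiff. SpG. Mitochondrial genes made up 0.392% and 0.953% of the RNA. The part of depth and RNA quality in the differences was not tested. Of the 1292 undiff. SpG, 1188 came from WT juveniles, whereas all Nfya-CKO spermatogonia came from testes of 8 weeks. Age and the deletion thus cannot be told apart for any member, in RNA or in scATAC-seq. Meioc and Stra8 were at least 2-fold lower, 2 of the 9 members, beside 3.08% of all genes, and no member was at least 2-fold higher, beside 4.09%. With 1 in place of 0.1 added, neither was past the limit, at log2 ratios of -0.42 for Meioc and -0.63 for Stra8. The median log2 ratio was 0.11 over the members and 0.01 over all genes tested. Meioc was 0.0513 UMIs per 10000 in Nfya-CKO spermatogonia and 0.409 in undiff. SpG, resting on about 46 and 491 UMIs. The log2 ratio was -1.75, a 3.37-fold lower level, at or below which 0.452% of genes lay. As the pseudocount of 0.1 exceeds the lower value, this understates the difference, and the plain ratio of both values was 0.125. In no other of the 13 populations, the somatic ones included, was the Meioc transcript as low, and 5.3% of 15238 genes were likewise lowest there. Of 5 pachytene markers 3 were at least 2-fold lower too, with a sum of 1.08 beside 4.005, and so were 3 of 5 spermatid markers, with a sum of 0.113 beside 0.668. Their part in the lower Meioc and Stra8 levels was not tested.

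Stra8 was 0.969 in Nfya-CKO spermatogonia, on about 874 UMIs, and 2.05 in undiff. SpG, on about 2457. Its log2 ratio of -1.01 was just past the limit. The 1292 undiff. SpG held 102 cells of Cre/+ and 1 of Nfya-CKO, the libraries with the modified Stra8 allele. All Nfya-CKO spermatogonia came from the latter, so the allele, age and the deletion cannot be told apart in this comparison. In diff. SpG, most of which carry the modified allele, Stra8 was 2.59. The log2 ratio of Nfya-CKO spermatogonia to them was -1.33, beside 10.5% of genes at least 2-fold lower. These cells are of another stage, and 455 of 927 carried a shared barcode. This ratio therefore does not tell the allele and the deletion apart either.

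The other 7 members stood within 2-fold of undiff. SpG. Kit was 1.08 in Nfya-CKO spermatogonia and 0.548 in undiff. SpG, a log2 ratio of 0.87. Ythdc2 (0.31), Dmrt1 (0.25), Dmrtb1 (0.23) and Sohlh1 (0.11) had log2 ratios above 0, and Sohlh2 (-0.33) and Meiosin (-0.11) below it. Dmrt1, at 4.48, and Sohlh1, at 1.90, had their highest level of all 13 populations in Nfya-CKO spermatogonia, a rank without a share of all genes beside it. Meiosin was 0.0580 there, on about 52 UMIs, and 0.0710 in undiff. SpG, on about 85. Dmrt1, Sohlh1 and Sohlh2 were thus near their control level, while Meioc was far below it.

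**Figure D2:**
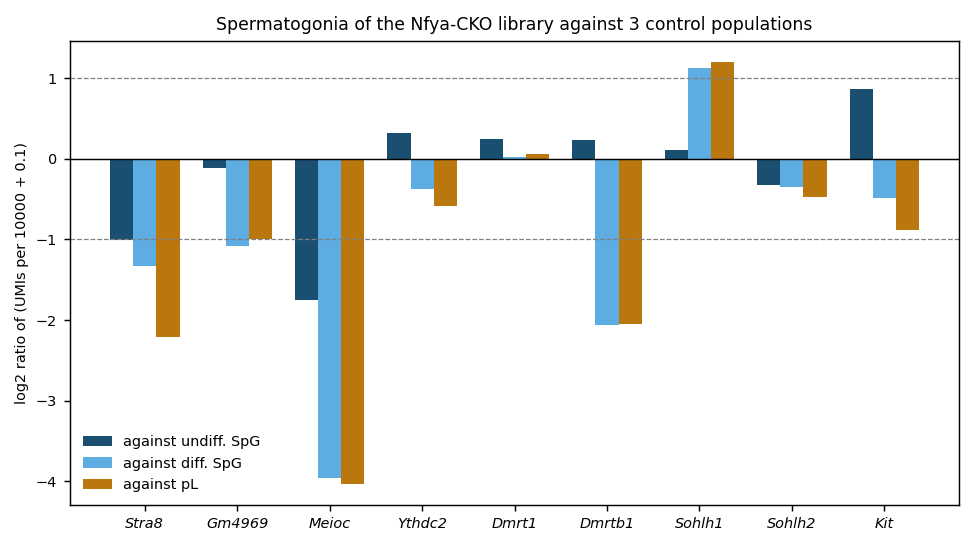
Log2 ratio of UMIs per 10000 with 0.1 added, for Nfya-CKO spermatogonia against undiff. SpG, diff. SpG and pL (bars), for each of the 9 genes. Dashed lines mark 2-fold. Meioc is lower against all 3 controls, from -1.75 to -4.03, Dmrtb1 is at 0.23 against undiff. SpG and at -2.06 against diff. SpG, and Kit is at 0.87 and -0.49.

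Against diff. SpG and pL the same cells gave other values, as both controls have other levels of these genes. These 3 comparisons share the Nfya-CKO spermatogonia. Against diff. SpG, Meioc (15.5-fold), Dmrtb1 (4.18-fold), Stra8 (2.51-fold) and Meiosin (2.12-fold) were lower, 4 members beside 10.5% of all genes. Sohlh1 was 2.18-fold higher, 1 member beside 6.86%. Of 5 pachytene markers 4 were at least 2-fold lower against diff. SpG, with a sum of 1.08 beside 14.8, and so were 5 of 5 spermatid markers, with a sum of 0.113 beside 11.1. Their part in these differences was not tested. Against pL, Meioc (16.3-fold), Stra8 (4.64-fold) and Dmrtb1 (4.12-fold) were lower, beside 4.73%, and Sohlh1 (2.30-fold) was higher, beside 9.05%. Kit lay above undiff. SpG and below the other controls, with log2 ratios of 0.87, -0.49 and -0.89. The size of the ratio thus varied with the control in most members, from -1.75 to -4.03 in Meioc, from -1.01 to -2.21 in Stra8 and from -0.11 to -1.09 in Meiosin. In Kit, Dmrtb1 and Ythdc2 the sign changed too, while in Meioc, Stra8, Meiosin and Sohlh2 the log2 ratio was below 0 against each of the 3.

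Chromatin accessibility was read from the scATAC-seq matrix, scaled here to 1000000 per population. Mitochondrial genes took 31.2% to 64.5% of the signal, so values were also scaled over nuclear genes alone. The latter raises all genes of Nfya-CKO spermatogonia relative to undiff. SpG, since the usual scaling shifts this log2 ratio by -0.14. The methods give a window around the start site for promoter coverage from the signal tracks, and whether the matrix values were counted over that window is not given in the sources used here.

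Stra8 signal, like its transcript, was highest in pL, at 68.7 per 1000000. It was 28.4 in undiff. SpG, 60.9 in diff. SpG, 43.4 in eL/L/Z and 13.8 in mP/lP. In diff. SpG the signal stood above that of eL/L/Z, whereas the transcript was slightly below. Meiosin (101), Dmrt1 (84.7) and Dmrtb1 (60.7) likewise had their maximum in pL under both scalings. Kit (47.1) and Sohlh2 (39.2) had it in pL only with all genes counted, and over nuclear genes in diff. SpG and in Nfya-CKO spermatogonia, respectively. Sohlh1 had its maximum in diff. SpG at 29.9, where its transcript was below that of undiff. SpG. The transcript and the signal of Sohlh1 thus did not peak in the same population. Ythdc2 signal was highest in Sertoli cells, at 37.6, where its transcript was 0.297 UMIs per 10000.

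**Figure D3:**
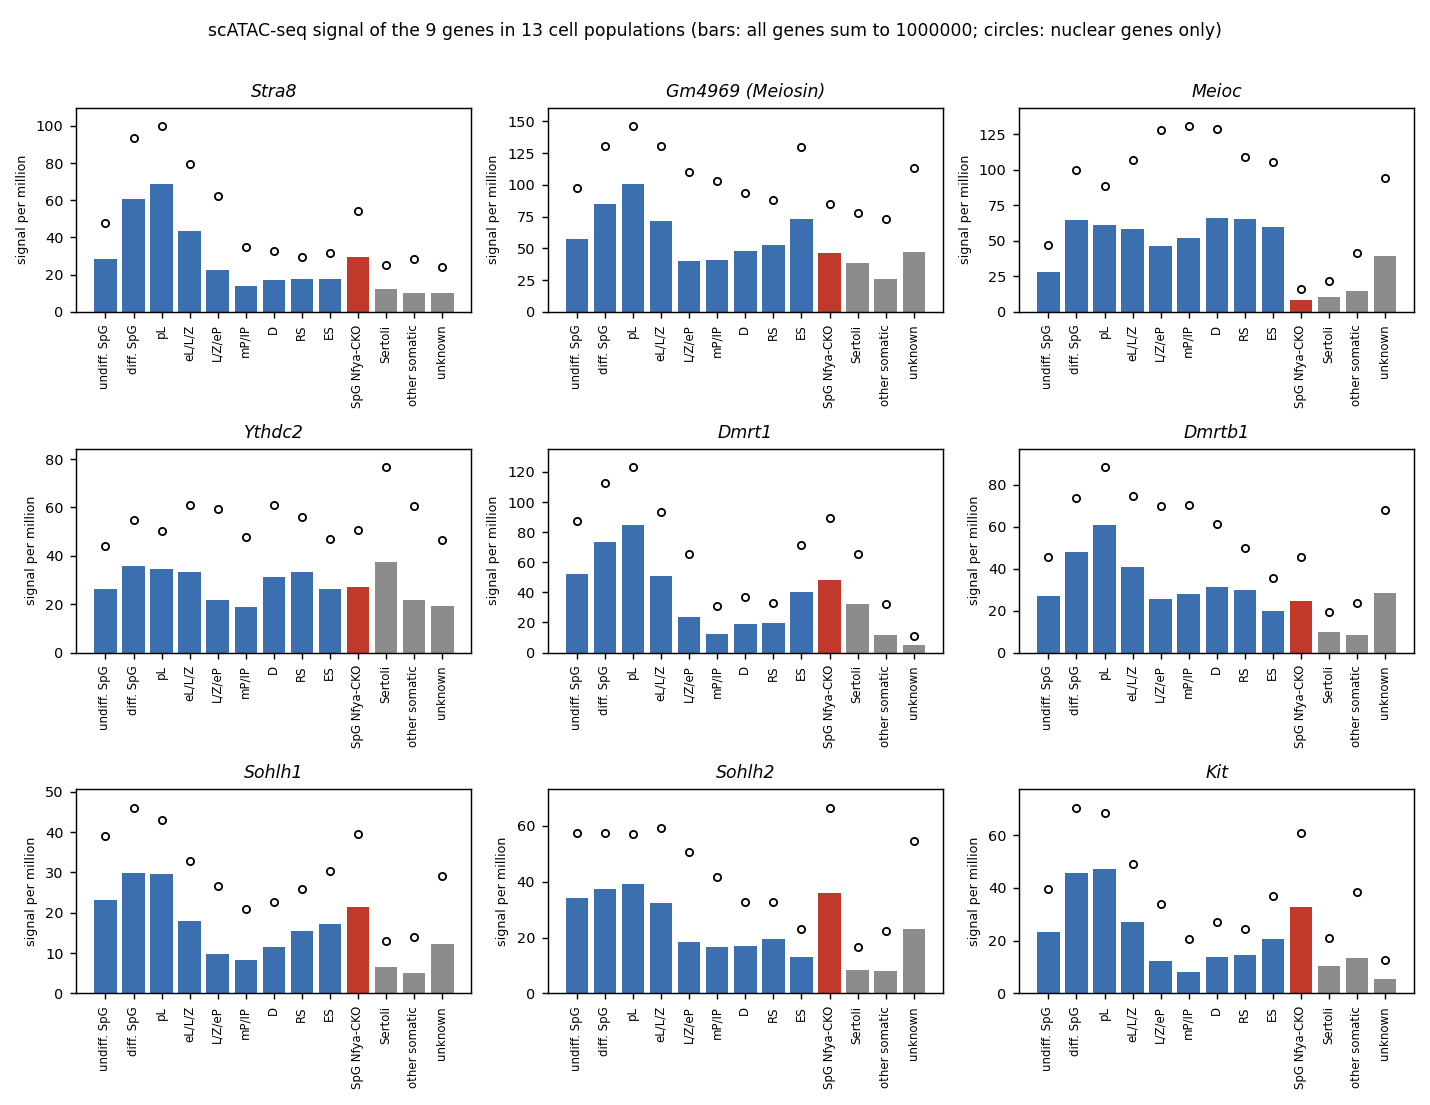
scATAC-seq signal of each of the 9 genes in 13 populations, on separate y axes from 0. Bars give the signal when all genes sum to 1000000 (blue germ, red Nfya-CKO spermatogonia, grey somatic or unknown), and open circles the signal over nuclear genes alone. Stra8, Meiosin, Dmrt1 and Dmrtb1 are highest in pL, and Meioc is lowest in Nfya-CKO spermatogonia at 8.55.

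Meioc signal was 28.0 per 1000000 in undiff. SpG, 64.8 in diff. SpG and 61.0 in pL. In Nfya-CKO spermatogonia it was 8.55, below Sertoli cells at 10.6 and all other populations. The ratio to undiff. SpG was 0.329, and 0.349 over nuclear genes. At or below these lay 0.02% and 0.1% of the genes compared. Meioc was the only member at least 2-fold lower, beside 0.441% of the 29939 genes, or 0.671% over nuclear genes, and no member was at least 2-fold higher, beside 1.62% or 4.52%. The median TSS enrichment, a measure of how far signal is gathered at start sites, was 7.82 in Nfya-CKO spermatogonia and 12.5 in undiff. SpG, and its part in the signal was not tested. The signal was lowest of the 13 populations in Nfya-CKO spermatogonia in 18.3% of 15238 genes, and the transcript in 5.3%. Meioc was 1 of 225 genes, 1.48%, in which both were lowest there. Only Mroh4, a gene chosen after its values were seen, was as low as Meioc in both ratios to undiff. SpG.

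Stra8 signal, by contrast, stood at 29.4 in Nfya-CKO spermatogonia and 28.4 in undiff. SpG, a ratio of 1.03, or 1.14 over nuclear genes. Its transcript was about 2-fold lower in the same pair. Against diff. SpG the signal ratio was 0.491, or 0.586 over nuclear genes. Kit was the member with the highest ratio to undiff. SpG, at 32.7 and 23.4 per 1000000, a ratio of 1.38, or 1.52. Meioc was the only member with a ratio of 0.8 or less, beside 21.3% of all genes, or 13.7% over nuclear genes. Kit was the only member at least 25% higher, beside 22.1% of all genes, or 31.5% over nuclear genes. Meiosin had a ratio of 0.801, or 0.878. The paper reports lower accessibility in Nfya-CKO spermatogonia at the promoters of both Stra8 and Meiosin, and NFYA binding at both. Its promoter values come from a window around the start site. The window of the matrix is not given, so the Stra8 ratio here is not a like measure. Against diff. SpG, 8 of 9 members had a ratio of 0.8 or less, beside 39.1% of all genes, and over nuclear genes 5 had, beside 28.6%. Meioc and Stra8 were at least 2-fold lower there, beside 8.04% of genes, and over nuclear genes only Meioc was, beside 4.82%. Against undiff. SpG, the remaining 5 members had ratios from 0.911 to 1.05, or from 0.998 to 1.16 over nuclear genes.

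**Figure D4:**
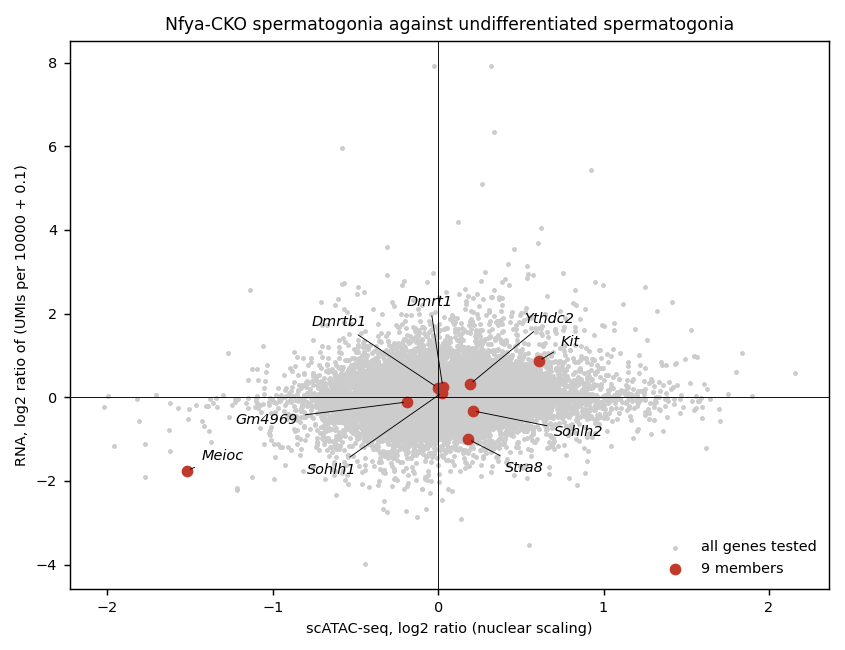
Log2 ratio of Nfya-CKO spermatogonia to undiff. SpG in scATAC-seq signal over nuclear genes (x axis) and in RNA (y axis) for 15238 genes (grey) and the 9 members (red). Meioc lies at -1.52 and -1.75, Stra8 at 0.18 and -1.01, and Kit at 0.61 and 0.87.

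Over the 13 populations, the log2 transcript level and the log2 nuclear signal of a gene moved together more closely in most members than in the typical gene. The populations share libraries and depth, so the values are a description. The correlation was 0.88 for Stra8, 0.88 for Meioc, 0.79 for Kit, 0.73 for Dmrt1 and 0.71 for Meiosin. It was 0.63 for Dmrtb1, 0.58 for Sohlh1, 0.52 for Sohlh2 and 0.09 for Ythdc2, beside a median of 0.35 over all genes with a maximum of at least 0.5 UMIs per 10000. Within the 9 control germ cell populations it was 0.92 for Stra8, 0.92 for Sohlh2, 0.93 for Kit, 0.91 for Dmrt1 and 0.87 for Sohlh1, beside a median of 0.37. It was lower than over the 13 populations for Meioc, at 0.75, and Meiosin, at 0.67, and it was 0.43 for Ythdc2. Ythdc2, the member whose transcript varied least, was the only one below the median over the 13 populations, and over the germ cells Dmrtb1, at 0.34, was the only one.

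Genes that work with the 9 regulators were described as lists. Of 4 partners of MEIOC and YTHDC2, none was 2-fold apart in Nfya-CKO spermatogonia against undiff. SpG, beside 3.08% of all genes lower and 4.09% higher, and the median log2 ratio was -0.23. With so few genes, a count of 0 here and in the lists of the KIT signal and the repressors is near this background and is no result about a list. Rbm46, an RNA-binding protein gene needed with them, was 0.747 UMIs per 10000 and 1.10 in the control, and Mov10, a helicase gene, was 1.06 and 1.92. Xrn1, a 5′ exonuclease gene, was 2.49 and 1.97, and Upf1, a helicase gene of RNA decay, was 1.12 and 1.09.

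Of 6 genes of the KIT signal none was 2-fold apart from undiff. SpG, beside the same 3.08% and 4.09% of all genes, with a median of -0.09. Kitl was 0.388 and 0.307 in this comparison, and the downstream genes Akt1 (1.14 and 1.48), Grb2 (1.63 and 1.65) and Sos1 (0.741 and 0.842) were near the control. Of 7 genes known to hold back meiotic entry, 6 passed the minimum mean and none was 2-fold apart, beside 3.08% and 4.09%, with a median of -0.03. Mga was 5.38 and 5.30, L3mbtl2 0.809 and 0.649, and both E2f6 (log2 ratio -0.89) and Pcgf6 (-0.73) were lower, within 2-fold. These belong to a repressor complex of early meiotic genes.

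Of 11 genes of retinoic acid supply and response, 9 passed the minimum mean and 2 were at least 2-fold higher in Nfya-CKO spermatogonia, beside 4.09% of all genes. These were Aldh1a1, an enzyme gene of retinoic acid synthesis (3.29 and 0.607), and Crabp1 (3.33 and 0.794), which encodes a binding protein for retinoic acid. Other somatic cells, of which 4633 of 5883 came from the same library, had 18.5 for Aldh1a1 and 1.01 for Crabp1, and 4126 of them carried a shared barcode. The sums of the Leydig and of the Sertoli markers were higher in these spermatogonia as well, as given above, and their part was not tested. Stra6, the gene of a retinol transporter, was 0.0395 and 0.126, and Cyp26b1, which encodes an enzyme that breaks down retinoic acid, was 0.0912 and 0.0604.

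Of 10 spermatogonial regulators, 4 were at least 2-fold lower, beside 3.08% of all genes. None was higher, beside 4.09%, and with 10 genes this count of 0 is near the background. The 4 lower genes were Sox3 (1.54 and 6.17), Zbtb16 (4.15 and 8.74), Sall4 (2.08 and 4.88) and Foxo1 (2.62 and 5.35), transcription factor genes of undifferentiated spermatogonia. Against diff. SpG, 4 of the 10 were at least 2-fold higher, beside 6.86% of all genes, and none was lower, beside 10.5%. Zbtb16 (1.20 in diff. SpG) and Sall4 (0.907) were among the 4, whereas Foxo1 (1.66) and Sox3 (2.03) were within 2-fold, with log2 ratios of 0.63 and -0.38. The signal of none of the 10 was at a ratio of 0.8 or less, or 25% higher, over nuclear genes, beside 13.7% and 31.5% of all genes, and 2 were at 0.8 or less with all genes counted, beside 21.3%.

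Of 26 early meiotic genes, the class that STRA8 and MEIOSIN act on, none was 2-fold apart from undiff. SpG, beside 3.08% of all genes lower and 4.09% higher, with a median log2 ratio of 0.03. This count, too, is near the background. Sycp1, of the synaptonemal complex, was 5.80 and 5.74 UMIs per 10000, and Sycp2 was 3.07 and 3.25. Tex15 was 14.7 and 11.0, and the cohesin gene Smc1b was 3.86 and 3.38. Against diff. SpG the median was -0.67 and 5 genes were at least 2-fold lower, beside 10.5% of all genes. Those 5, named after their values were seen, were Prdm9, Meiob, Rec8, M1ap and Tex11. The pachytene and spermatid markers were lower against diff. SpG as well, as given above, and Rec8 was highest in RS. Their part was not tested. In scATAC-seq signal against undiff. SpG, 10 of the 26 had a ratio of 0.8 or less over nuclear genes, beside 13.7% of all genes, and 12 were with all genes counted, beside 21.3%. Rec114 alone, named after its values were seen, was at least 25% higher under either scaling, 1 gene beside 31.5% and 22.1%. The part of the lower TSS enrichment of Nfya-CKO spermatogonia (7.82 beside 12.5) was not tested.

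**Figure D5:**
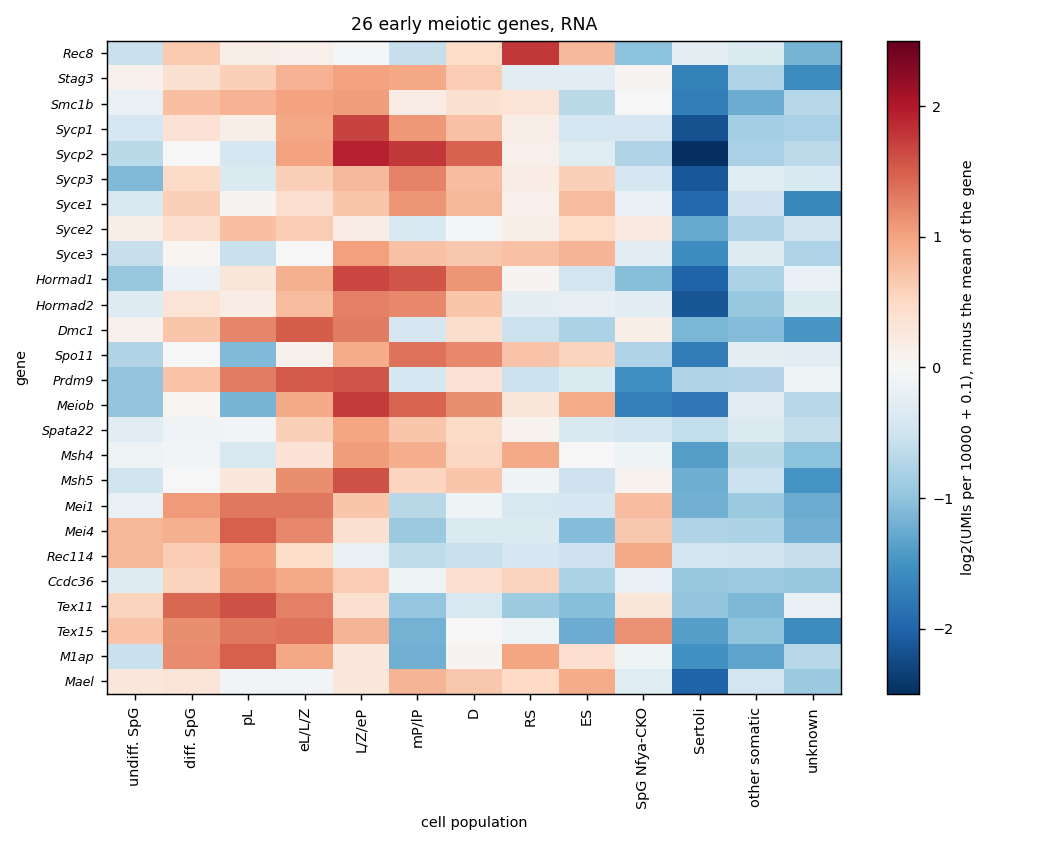
RNA level of 26 early meiotic genes (rows) in 13 populations (columns), as log2 of UMIs per 10000 with 0.1 added, minus the mean of each gene (color; red high, blue low). Sycp1 goes from 5.74 in undiff. SpG to 25.3 in L/Z/eP and stands at 5.80 in Nfya-CKO spermatogonia, and most genes have like colors in undiff. SpG and Nfya-CKO spermatogonia.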

How the data were processed

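The authors sequenced RNA and accessible chromatin of single testis cells. Per their methods, reads were mapped to mm10 with STAR 2.7.10b (RNA, uniquely mapped, UMIs collapsed) and BWA 0.7.12 (ATAC), cells with under 500 genes or 5% or more mitochondrial RNA were removed, doublets were called and taken out, and cells were clustered in Seurat 5.2.1 and ArchR 1.0.3 and named from markers. The deposited matrices hold the natural log of 1 plus a value that sums to 10000 in each population, and the deposited cell tables hold the count of UMIs or fragments per cell, percent mitochondrial RNA and a TSS enrichment score.

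The natural logs were inverted with Python 3 libraries (pandas, numpy), scATAC-seq was rescaled to 1000000, and log2 ratios were taken with 0.1 UMIs per 10000 or 1 per 1000000 added. RNA ratios covered genes with a mean of at least 0.05. The RNA libraries held from 3746 cells (WT 17 dpp) to 18039 (WT 25 dpp), and their median depth ranged from 1447 UMIs per cell (Nfya-CKO) to 7603 (WT 11 dpp). With 1 library per condition there was no test and no p-value, and intervals were not given, as UMIs per gene are known only approximately.

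The members, lists and comparisons were chosen with earlier results of these data known. The text names all 9 members, the 3 genes with the highest Pearson r to each (maximum of at least 0.5 UMIs per 10000), and up to 4 genes per list, those with the highest maximum over the 13 populations. Mroh4, the single markers of cell types and the further early meiotic genes were named after their values were seen. Ratios and the ranking were tested on simulated data. Other pseudocounts, filters, folds, controls and scalings were tried. The 20 columns of the cell tables that hold other values were not used. One gene of a pathway list is not reported here and was taken out of its list.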

Additional observations from a re-analysis of the deposited data

How the results depend on the processing

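No paired analysis was possible because each condition had 1 library per assay and the matrices pool libraries, and leaving out a library or the shared barcodes could not be done for the same reason. Against undiff. SpG, the count of members at least 2-fold lower in RNA (2) was 0 with a pseudocount of 1 and 1 at a limit of 3-fold. The count of higher members (0) was 1 at 1.5-fold. Against diff. SpG the counts were 4 lower, beside 10.5% of all genes, and 1 higher, beside 6.86%. Counts at other pseudocounts and limits, here and for the steps below, have no share of all genes beside them. The Stra8 log2 ratio (-1.01) was -0.63 with a pseudocount of 1, -1.33 against diff. SpG and -1.15 against the mean of both spermatogonial controls weighted by cells. The Meioc log2 ratio (-1.75) was -2.77 with a pseudocount of 0.01, -0.42 with 1, -3.95 against diff. SpG and -3.08 against the weighted mean. Both stayed below 0 in the 4 alternatives that could change their sign, the other controls and scalings. The steps between germ cell populations (10 lower, 3 higher) gave 7 higher with a pseudocount of 0.01, 1 lower and 1 higher with 1, 9 higher at 1.5-fold and 3 lower at 3-fold. In scATAC-seq, members with a ratio of 0.8 or less (1, beside 21.3% of all genes) were 2 with no pseudocount. Against diff. SpG they were 8, beside 39.1% of all genes, and 2 were at least 2-fold lower, beside 8.04%. There 0 were at least 25% higher, a count without a share of all genes beside it, so it is no result about the members. The scATAC-seq ratio against diff. SpG was 0.491 for Stra8 and 0.145 for Meioc, and it was 0.721 for Kit, on the other side of 1 from its value against undiff. SpG. Of the 27 likest genes, 7 were kept with Spearman's rho and 3 over the 9 control germ cell populations alone, so the named genes depend on the measure. The population with the highest level was kept for 9 members without mitochondrial genes and for 7 over the germ cells. Depth limits Meiosin and Meioc most, with about 52 and 46 UMIs in Nfya-CKO spermatogonia.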
